A study of Mus musculus with 2 samples.

Results

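The genes described here are 42 genes of cell proliferation and DNA replication, measured with Affymetrix mouse arrays in osteoblastic cells. They were chosen by symbol: 16 genes of DNA replication, 23 genes of mitosis and 3 transcription factors of the cell cycle. A probe set, the group of short oligonucleotides that reports a transcript, was used when the platform annotation gave it exactly 1 gene symbol. By that rule 41 of the 42 genes had a probe set, among 18194 genes on the arrays, and Ccnb1 was not analysed. These 41 genes had 97 of the 34958 probe sets with a single symbol.

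Cells without intact Ebf2 (Ebf2-/-) were compared with heterozygous cells (Ebf2+/-), each on 1 array. Both came from tibia and femur of C57Bl/6 embryos (E18.5) and carried the Ebf2-lacZ marker, and the Ebf2+/- cells, too, have a mutant allele. Cells with beta-galactosidase activity were sorted with the fluorogenic substrate FDG, and the labels also describe growth without passaging in alpha MEM with 10% serum. The labels give 3 mice per genotype without saying whether their RNA was pooled. Wild-type cells were not analysed here, and values are those of marker-sorted, cultured cells. With 1 array per genotype no difference could be set against a spread between animals or cultures, no p-value was computed, and every ratio below describes these 2 arrays.

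Dividing cells copy their genome once in S phase and separate the copies in mitosis. Before S phase the MCM proteins are loaded on DNA as a ring that becomes the replicative helicase, and cyclin E with its kinase helps to start copying. Cyclin A and cyclin B with Cdk1 then drive entry into mitosis, where Aurora and Polo kinases, kinesin motors and the spindle checkpoint separate the chromosomes. Most of these genes are transcribed in waves: replication genes around the entry into S phase through E2F factors, mitotic genes later through the MuvB complex, B-Myb and FoxM1. In bone, osteoblast precursors divide and mature osteoblasts largely stop dividing.

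Signals are the authors' MAS5 intensities, scaled to a common trimmed mean on both arrays. Background was taken as the 95th percentile of 86 probe sets of olfactory, vomeronasal and taste receptors, which gave a floor of 23.8 on the Ebf2-/- array and 17.8 on the Ebf2+/- array. Genes with a signal over the floor in either genotype count as measured here, and there were 11785. Ratios are Ebf2-/- over Ebf2+/-, so a positive log2 ratio means a higher signal in the Ebf2-/- cells. Different probe sets of the same gene disagreed with a pooled SD of 0.44 on the log2 scale over 4119 genes, and of 0.40 over the 20 members that had more than 1 usable probe set. A ratio of a single gene below about 1.36-fold lies within 1 SD of that disagreement. A larger ratio is not thereby established, since this SD does not measure a spread between animals or cultures. The ratio of signal at the 3′ over the 5′ end of beta-actin, a measure of RNA integrity, was 2.79 on the Ebf2-/- array and 1.97 on the Ebf2+/- array, and its part in the results was not tested.

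The cells carried the transcripts of dividing cells: Mki67, the antigen of dividing cells, and Top2a, the topoisomerase that untangles chromosomes, were well above background on both arrays. All 41 genes were measured, and 40 were above the floor on both arrays. Proliferation genes were as a group slightly higher in the Ebf2-/- cells. Of the 41 genes 34 had the higher signal in Ebf2-/- and 7 the lower, whereas 46.9% of all measured genes were higher and 47.9% lower. The median log2 ratio was 0.34 over the 41 genes and 0.03 over all measured genes. In bulk RNA a different share of dividing cells and a different amount of transcript per dividing cell cannot be told apart.

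The differences were small. A ratio of at least 1.5-fold higher was seen for 11 genes, or 26.8% of the members, against 15.9% of all measured genes, and 0 members were at least 1.5-fold lower, against 10.5%. Only Aurkb passed 2-fold higher, when 6.30% of all measured genes did, and 0 members passed 2-fold lower, when 3.46% did. By single probe sets above background on both arrays, 4 of 67 of the members (5.97%) were at least 2-fold higher, against 6.10% of all such probe sets, a share near the background. With the arrays scaled to spike-in control transcripts, all log2 ratios drop by 0.13, the median of all measured genes moves to -0.10, and 5 members in place of 11 reach 1.5-fold higher.

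**Figure D1:**
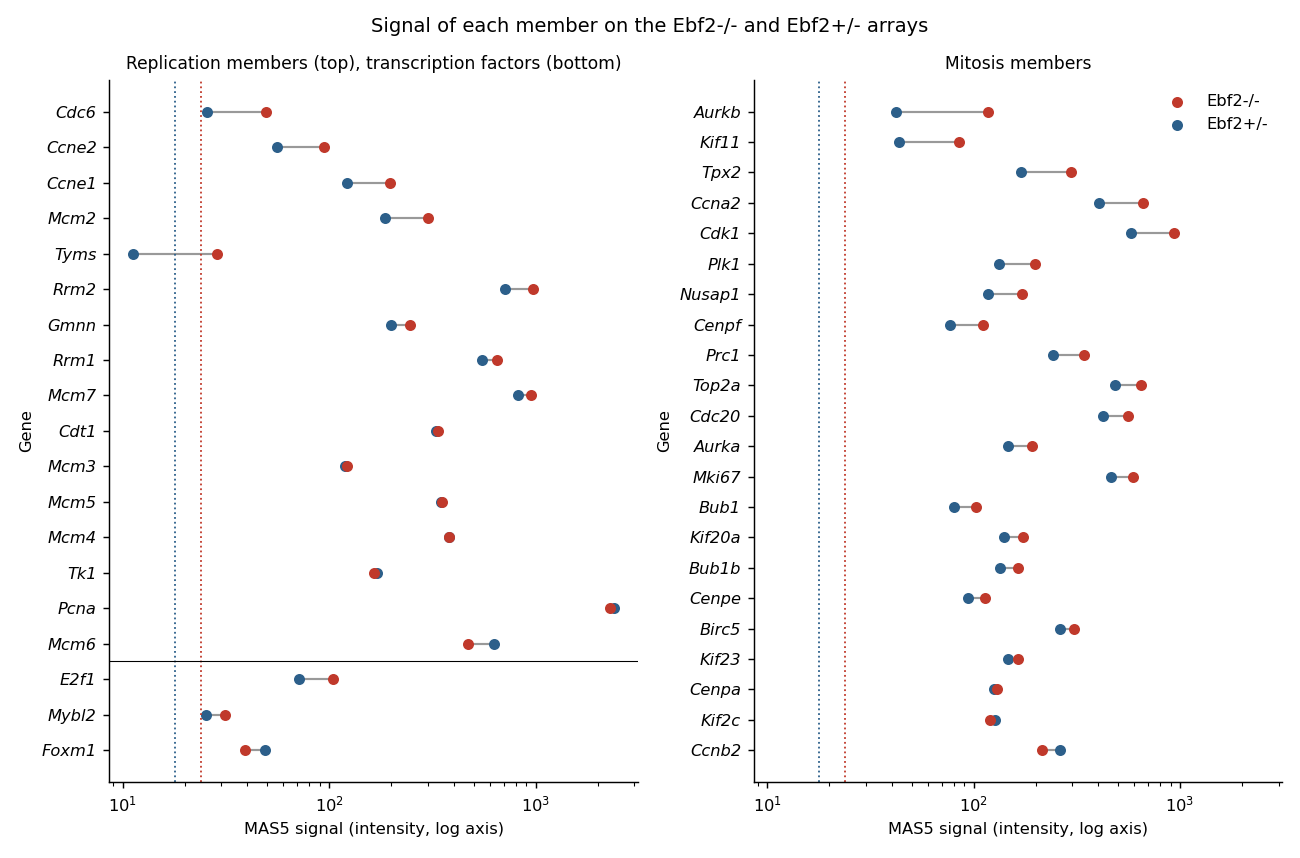
MAS5 signal (log axis) of each measured member on the Ebf2-/- array (red) and the Ebf2+/- array (blue), joined by a line, with replication genes and transcription factors on the left and mitosis genes on the right, each ordered by log2 ratio; dotted lines mark the background floors of 23.8 (Ebf2-/-) and 17.8 (Ebf2+/-). Red lies right of blue for 34 of 41 genes, and Tyms is the gene whose blue point lies below the floor.

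Mitosis genes and replication genes were then compared with each other. Of 22 measured mitosis genes 20 were higher in Ebf2-/- (90.9%, against 46.9% of all measured genes), with a median log2 ratio of 0.39. Of 16 replication genes 12 were higher (75%, against the same 46.9%), with a median of 0.22. The replication median was thus lower by 0.17 on the log2 scale than the mitosis median. At 1.5-fold the order was not kept: 5 of 16 replication genes (31.2%) and 6 of 22 mitosis genes (27.3%) were at least 1.5-fold higher. The share of all measured genes was 15.9%. The upper quartile was 0.68 for replication and 0.58 for mitosis. Both of these orders depend on Tyms, which is below the floor in Ebf2+/- and has no settled direction, as given below. Without the cyclins Ccne1 and Ccne2, which act before copying begins, the replication median was 0.115. Single probe sets gave the same order: 30 of the 32 mitosis probe sets above background on both arrays were higher in Ebf2-/- (median 0.40), and 23 of the 30 replication probe sets were (median 0.23), against 49.8% of 16457 probe sets overall. The gap between the medians shrank to -0.013 when all probe sets of a gene were averaged, those below background included.

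**Figure D2:**
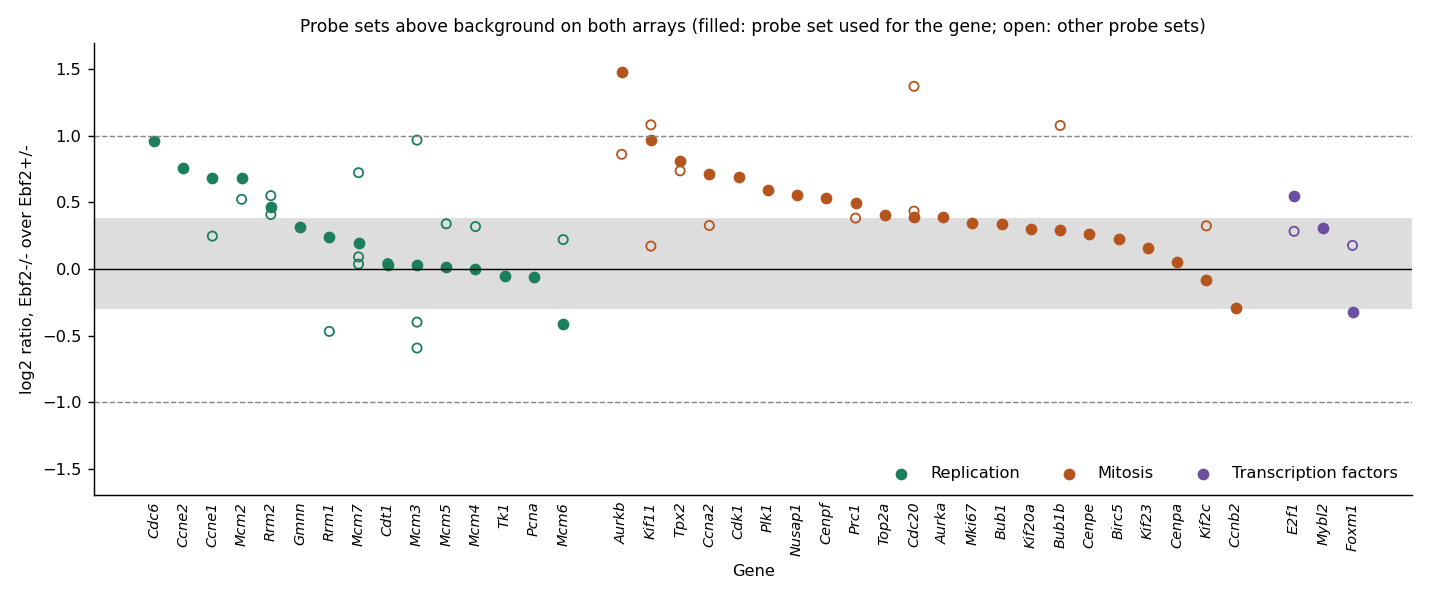
Log2 ratio of Ebf2-/- over Ebf2+/- for each probe set of the members that was above background on both arrays, by gene and list; filled points are the probe sets used for the gene, dashed lines mark 2-fold and the grey band spans the middle 50% of all measured genes (-0.30 to 0.38). Of the mitosis probe sets 30 of 32 lie above 0, and of the 16 probe sets of Mcm2 to Mcm7 12 do.

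The lists also differed in the sequence just before their genes. Promoter windows of 300 bases, of which 250 lie before the transcription start, were available from RefSeq (GRCm38.p6) for 34 of the 42 genes. Known motifs were searched on both strands: the E2F site as TTTCCCGC, TTTCGCGC, TTTGGCGC or TTTGCCGC, the cell cycle homology region (CHR, bound by MuvB) as TTTGAA or also TTCGAA, and the CCAAT box, bound by NF-Y. Overlapping E2F matches were counted separately. A CHR was found in 15 of 19 mitosis genes (78.9%) and in 2 of 13 replication genes (15.4%), against 16.2% of 9527 measured genes and 21.7% of all 27025 genes with a window. An E2F match was found in 6 of 13 replication genes (46.2%) and in 1 of 19 mitosis genes (5.26%), against 4.71% of measured genes. CHR and CCAAT stood together in 14 mitosis genes (73.7%), 2 replication genes (15.4%) and 7.78% of measured genes. A match is a run of letters, not a measured binding site.

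Within the lists, the E2F-bearing replication genes had a median log2 ratio of 0.03 (6 genes) and the others 0.46 (7 genes). The E2F-bearing genes were the helicase genes Mcm3, Mcm5, Mcm6 and Mcm7 with Cdc6 and Cdt1. The motif and membership of the helicase thus cannot be told apart here, and a part of the motif in the ratios was not tested. Mcm3 in the first group and Tyms in the second have no settled direction, as given below. The 15 measured mitosis genes with a CHR had a median of 0.39, and the 3 without had 0.26. To show how these windows look, the 250 bases before the start are given for the genes with most matches whose stretch overlaps no annotated gene. Cdk1 (chr10:69352913-69353162, minus strand) and Ccnb2 (chr9:70421555-70421804, minus strand) are mitosis genes with ratios on opposite sides of 0. Mcm6 (chr1:128359706-128359955, minus strand), Mcm3 (chr1:20820313-20820562, minus strand) and Mcm2 (chr6:88898781-88899030, minus strand) are subunits of the same helicase with different ratios. Each is written 5′ to 3′ towards the start, with the matches in capitals; a CCAAT box on the other strand reads ATTGG.
Cdk1: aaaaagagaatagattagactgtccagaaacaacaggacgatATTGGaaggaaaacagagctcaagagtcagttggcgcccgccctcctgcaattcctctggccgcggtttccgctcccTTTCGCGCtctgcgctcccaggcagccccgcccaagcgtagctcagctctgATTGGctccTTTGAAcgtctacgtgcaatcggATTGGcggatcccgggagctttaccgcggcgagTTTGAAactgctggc
Ccnb2: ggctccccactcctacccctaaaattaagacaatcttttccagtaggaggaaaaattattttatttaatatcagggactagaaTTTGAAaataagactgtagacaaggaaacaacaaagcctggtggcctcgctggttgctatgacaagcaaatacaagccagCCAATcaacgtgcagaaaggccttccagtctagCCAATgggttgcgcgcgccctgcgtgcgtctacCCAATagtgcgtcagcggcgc
Mcm6: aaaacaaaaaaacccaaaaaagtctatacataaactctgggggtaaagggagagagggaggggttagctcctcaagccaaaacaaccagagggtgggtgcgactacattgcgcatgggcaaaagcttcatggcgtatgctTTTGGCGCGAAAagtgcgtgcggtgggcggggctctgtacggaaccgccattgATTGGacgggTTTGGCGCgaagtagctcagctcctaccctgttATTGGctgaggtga
Mcm3: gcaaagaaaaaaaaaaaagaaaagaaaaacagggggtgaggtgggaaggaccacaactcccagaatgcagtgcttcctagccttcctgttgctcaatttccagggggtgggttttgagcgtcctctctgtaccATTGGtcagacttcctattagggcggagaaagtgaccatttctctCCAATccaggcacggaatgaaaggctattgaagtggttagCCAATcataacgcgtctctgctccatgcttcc
Mcm2: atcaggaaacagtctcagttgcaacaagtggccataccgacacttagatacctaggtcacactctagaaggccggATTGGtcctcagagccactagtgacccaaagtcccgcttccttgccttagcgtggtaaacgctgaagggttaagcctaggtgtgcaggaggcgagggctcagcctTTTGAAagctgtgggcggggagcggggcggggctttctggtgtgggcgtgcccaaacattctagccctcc
Cdk1 carries an E2F match, 2 CHR matches and 3 CCAAT boxes in this stretch, and Ccnb2 carries 1 CHR match and 3 CCAAT boxes. Mcm6 holds 3 E2F matches, of which a pair overlaps, and 2 CCAAT boxes. Both E2F matches of the Mcm3 window lie after the start and are not printed, so its 3 capitals are CCAAT boxes. Mcm2 holds a CHR match and a CCAAT box and no E2F match by these letters.

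Among the replication genes the 6 helicase subunits Mcm2 to Mcm7 had a median log2 ratio of 0.02 by their brightest probe sets, close to that of all measured genes. That median depends on probe sets of types that can also match other transcripts. Without them Mcm3 and Mcm5 had log2 ratios of 0.97 and 0.34, Mcm2, Mcm4 and Mcm6 were unchanged, and Mcm7 had no probe set. Over their 16 probe sets above background on both arrays 12 were higher (75%, against 49.8% of all such probe sets) and 4 lower, with a median of 0.14. Mcm4 read 382 on both arrays, but 175 in Ebf2-/- and 141 in Ebf2+/- with its other probe set. Mcm5 read 353 in Ebf2-/- and 349 in Ebf2+/-, but 226 in Ebf2-/- and 179 in Ebf2+/- with its other probe set above background. Near-equality thus held for the brightest probe set of these genes, not for both. Mcm2 read 301 in Ebf2-/- and 187 in Ebf2+/-, a 1.61-fold higher signal, and 169 in Ebf2-/- against 118 in Ebf2+/- with its other probe set. Mcm6, the subunit with the lowest ratio, read 469.6 in Ebf2-/- and 626 in Ebf2+/-, 1.33-fold lower, although its other probe set above background read 150.1 in Ebf2-/- and 129 in Ebf2+/-. The proteins form a ring of fixed composition, and the arrays gave its subunits log2 ratios between -0.42 and 0.69. Mcm7 read 944 in Ebf2-/- and 824 in Ebf2+/-, and its 4 probe sets were all higher, by log2 ratios of 0.04 to 0.72. Mcm3 read 122 in Ebf2-/- and 119 in Ebf2+/-, while its 3 other probe sets above background gave 0.97, -0.40 and -0.59, so its direction is not settled.

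Loading of the helicase depends on Cdc6 and Cdt1 and is blocked by geminin, the product of Gmnn. Cdc6 read 49.5 in Ebf2-/- and 25.5 in Ebf2+/-, 1.94-fold higher, with the Ebf2+/- value only just above its floor, and its log2 ratio was 0.96, or 0.40 when 50 was added to both signals. Cdt1 read 335 in Ebf2-/- and 327 in Ebf2+/-. Gmnn read 247 in Ebf2-/- and 198 in Ebf2+/-, 1.24-fold higher. Licensing factors thus covered the range from equal signals to nearly 2-fold.

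Pcna, the sliding clamp of the replication fork, read 2300.5 in Ebf2-/- and 2397 in Ebf2+/-, a log2 ratio of -0.06. Enzymes that supply DNA precursors were mixed. The small subunit of ribonucleotide reductase, Rrm2, read 974 in Ebf2-/- and 707 in Ebf2+/-, 1.38-fold higher, and its 3 probe sets lay between log2 ratios of 0.41 and 0.55. The large subunit, Rrm1, read 646 in Ebf2-/- and 547 in Ebf2+/-, but 335 in Ebf2-/- and 463 in Ebf2+/- with another probe set, so its probe sets disagree in direction. Thymidine kinase, Tk1, read 165 in Ebf2-/- and 171 in Ebf2+/-. Thymidylate synthase, Tyms, was dim, at 28.5 in Ebf2-/- and 11.2, below the floor, in Ebf2+/-, and was at least 1.60-fold higher by this probe set. Another Tyms probe set pointed the other way, with 3.83, below the floor, in Ebf2-/- and 18.3, just above it, in Ebf2+/-, so its direction is not settled.

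The cyclins that trigger S phase were higher than most replication genes. Ccne1 read 196 in Ebf2-/- and 122 in Ebf2+/-, 1.61-fold higher, and 127 in Ebf2-/- against 107 in Ebf2+/- with its other probe set. Ccne2 read 94.5 in Ebf2-/- and 56.0 in Ebf2+/-, 1.69-fold higher.

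Among the mitosis genes, Cdk1, the kinase that drives mitotic entry, read 932 in Ebf2-/- and 578 in Ebf2+/-, 1.61-fold higher. Its partner cyclin A2, Ccna2, read 662 in Ebf2-/- and 404 in Ebf2+/-, 1.64-fold higher, and 1.25-fold by its other probe set. The cyclin B gene Ccnb2 went the other way and read 214 in Ebf2-/- and 262 in Ebf2+/-, 1.22-fold lower. The Ccnb2 ratio is smaller than the SD between probe sets, whereas that of Cdk1 and that of the brightest Ccna2 probe set are larger. The other Ccna2 probe set lies below that SD, and Cdk1 has only 1 probe set to judge by.

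The mitotic kinases and their partners were all higher in Ebf2-/- (4 of 4, against 46.9% of all measured genes), with a median log2 ratio of 0.49. Aurkb, the kinase of the chromosomal passenger complex, had the largest ratio of all members: it read 118 in Ebf2-/- and 42.2 in Ebf2+/-, 2.79-fold higher. Its other probe set read 82.5 in Ebf2-/- and 45.4 in Ebf2+/-, 1.82-fold higher. Both probe sets are of types that can also match other transcripts, and adding 50 to both signals brought Aurkb to 0.86 on the log2 scale, under 2-fold. Birc5, which encodes survivin in the same complex, read 308 in Ebf2-/- and 263 in Ebf2+/-, 1.17-fold higher. The passenger partners thus differed in size by more than the SD between probe sets. Plk1, a Polo kinase, read 199 in Ebf2-/- and 132 in Ebf2+/-, 1.51-fold higher, and the centrosomal kinase Aurka read 192 in Ebf2-/- and 146 in Ebf2+/-, 1.31-fold higher.

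Spindle genes were higher in 6 of 7 cases (85.7%, against 46.9% of all measured genes), with a median log2 ratio of 0.50. Kif11, the motor that pushes spindle poles apart, read 84.9 in Ebf2-/- and 43.4 in Ebf2+/-, 1.95-fold higher, with 2.12-fold and 1.13-fold by its other probe sets. Tpx2, which activates Aurora A on the spindle, read 297 in Ebf2-/- and 169 in Ebf2+/-, 1.76-fold higher, and 1.67-fold by a second probe set. As a mean over all 4 probe sets of Tpx2, of which the remainder are below background, the log2 ratio was -0.11. Nusap1 and Prc1, proteins that bundle microtubules, were 1.47-fold and 1.41-fold higher. Kif20a and Kif23, motors needed for cytokinesis, were 1.23-fold and 1.12-fold higher. Kif2c, which takes microtubules apart at kinetochores, read 120.2 in Ebf2-/- and 127 in Ebf2+/-, and 57.5 in Ebf2-/- and 45.9 in Ebf2+/- with its other probe set, so it had no settled direction.

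The spindle checkpoint kinases and their target were all slightly higher by their brightest probe set. Bub1 read 102 in Ebf2-/- and 80.7 in Ebf2+/-, 1.27-fold higher, while a dim probe set read 8.49, below the floor, in Ebf2-/- and 21.8 in Ebf2+/-. Bub1b read 163 in Ebf2-/- and 134 in Ebf2+/-, 1.22-fold higher, and 2.11-fold by its other probe set above background. Cdc20, the activator of the ubiquitin ligase that ends mitosis, read 559 in Ebf2-/- and 426 in Ebf2+/-, and its 3 probe sets were 1.31-fold, 1.35-fold and 2.59-fold higher. The kinetochore genes followed with small ratios: Cenpf was 1.45-fold higher (111 in Ebf2-/- against 76.9 in Ebf2+/-), Cenpe by 0.26 on the log2 scale (113 in Ebf2-/- against 94.3 in Ebf2+/-) and the centromeric histone Cenpa 1.04-fold (130.5 in Ebf2-/- against 126 in Ebf2+/-). Mki67 read 590.1 in Ebf2-/- and 464 in Ebf2+/-, 1.27-fold higher. Top2a read 644 in Ebf2-/- and 485 in Ebf2+/-, 1.33-fold higher, whereas its dim probe sets opposed each other.

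Of the transcription factors that drive these waves, Mybl2 and Foxm1 were dim and E2f1 was clearly above background. E2f1 read 105 in Ebf2-/- and 71.5 in Ebf2+/-, 1.47-fold higher, and 1.22-fold by a second probe set. Mybl2, the gene of B-Myb, read 31.3 in Ebf2-/- and 25.3 in Ebf2+/-, just above both floors. Foxm1 read 38.9 in Ebf2-/- and 48.7 in Ebf2+/-, 1.25-fold lower, but 35.4 in Ebf2-/- and 31.3 in Ebf2+/- by another probe set. The direction of Foxm1 is thus not settled, although most mitosis genes were higher.

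**Figure D3:**
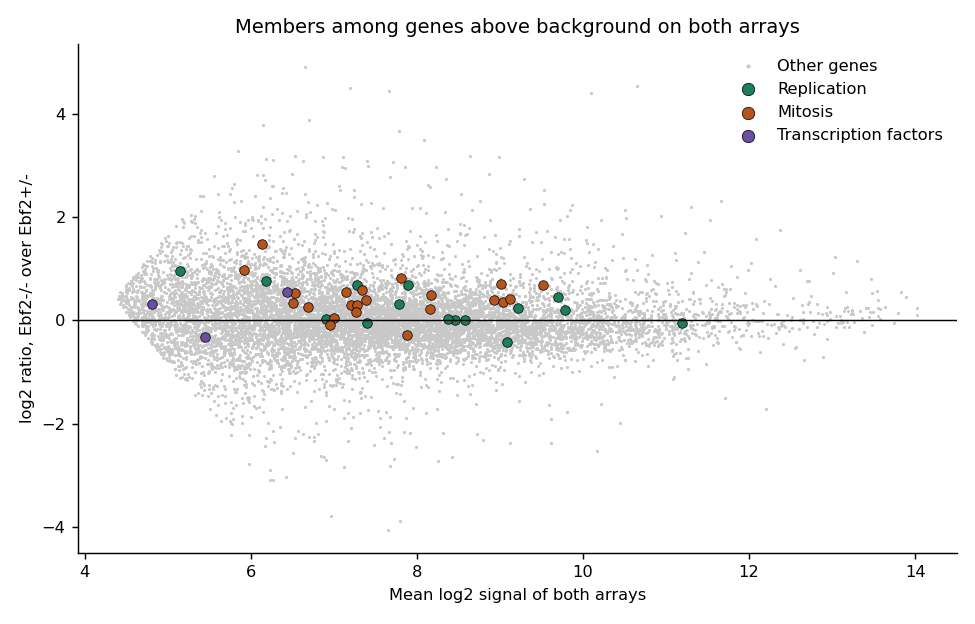
Log2 ratio of Ebf2-/- over Ebf2+/- against the mean log2 signal of both arrays for genes above background on both; grey points are the other genes and coloured points the members. The members span dim to bright signals, lie within the cloud of all genes, and lie mostly above 0 (33 of the 40 shown).

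Further genes of the same processes, listed by function but with earlier results of these data known, were set beside the members. Of 54 measured further mitosis genes 42 were higher in Ebf2-/- (77.8%, against 46.9% of all measured genes), with a median log2 ratio of 0.34. At least 1.5-fold higher were 17 (31.5%, against 15.9%), and at least 2-fold 6 (11.1%, against 6.30%). By contrast, 0 were 1.5-fold lower, against 10.5%. Nek2, a centrosomal kinase, read 51.0 in Ebf2-/- and 17.98 in Ebf2+/-, 2.84-fold higher, with the second value barely above the floor. Pimreg read 120.2 in Ebf2-/- and 45.0 in Ebf2+/-, 2.67-fold higher, and Sgo2a, a shugoshin that protects centromere cohesion, read 112 in Ebf2-/- and 50.7 in Ebf2+/-, 2.21-fold higher. Of 46 measured further replication genes 31 were higher (67.4%, against 46.9% of all measured genes), with a median of 0.12. At least 1.5-fold higher were 8 (17.4%), a share near the 15.9% of all measured genes. Only 1 was 1.5-fold lower (2.17%, against 10.5%). In either direction 0 passed 2-fold, against 6.30% higher and 3.46% lower of all measured genes. The largest ratios were those of Clspn, a checkpoint mediator at the fork (131 in Ebf2-/- against 73.2 in Ebf2+/-, 1.79-fold), Uhrf1, which guides maintenance of DNA methylation (167 in Ebf2-/- against 97.4 in Ebf2+/-, 1.71-fold), and Brca1, a repair gene (86.6 in Ebf2-/- against 51.7 in Ebf2+/-, 1.68-fold). The mitosis median was above the replication median, as among the members. These come from the same 2 arrays and are not an independent check.

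**Figure D4:**
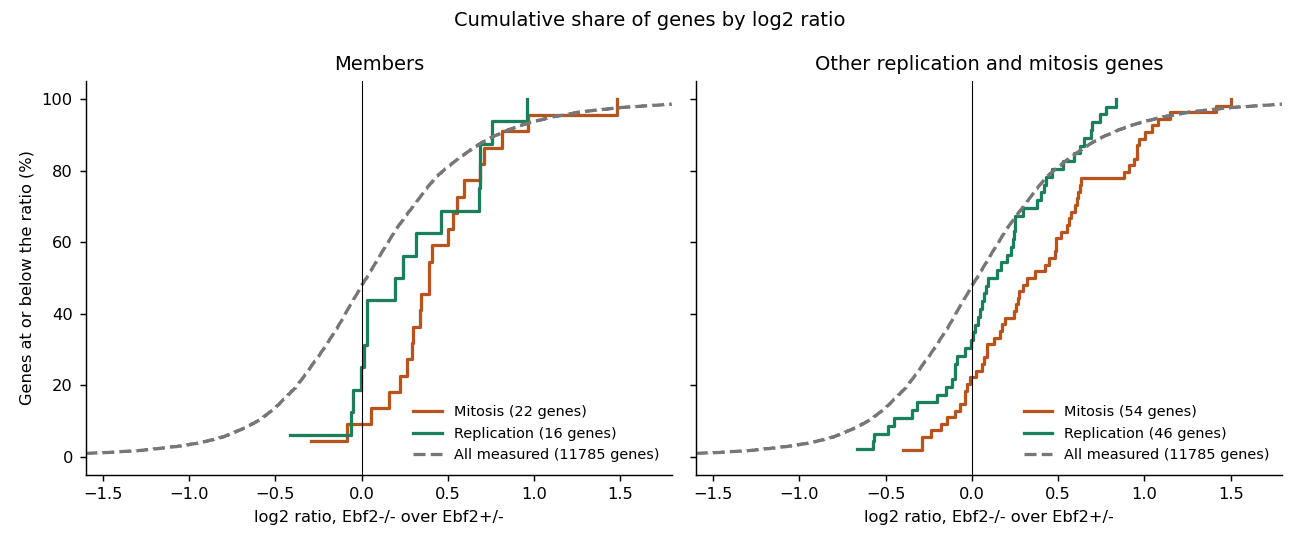
Cumulative share of genes (%) by log2 ratio of Ebf2-/- over Ebf2+/- for mitosis genes, replication genes and all 11785 measured genes; left, the members (22 and 16 genes), right, the further genes (54 and 46). In both panels most of the mitosis curve lies right of the replication curve, and medians are 0.39 and 0.22 on the left and 0.34 and 0.12 on the right.

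Genes that act earlier, at the decision to enter the cycle, were not higher as a group. Of 8 measured cyclins, kinases and activators of the G1 phase, 5 were lower in Ebf2-/- (62.5%, against 47.9% of all measured genes). The other 3 were higher (37.5%, against 46.9%), and the median log2 ratio was -0.11. With only 8 genes these shares do not set the list apart from all genes. The higher genes, named after their values were seen, were Myc, Cdk4 and Cdk2, with log2 ratios of 0.46, 0.23 and 0.23. Cdk6, a partner of the D cyclins, read 87.8 in Ebf2-/- and 215 in Ebf2+/-, 2.45-fold lower, and 1.86-fold lower by its second probe set above background. Ccnd1 read 1782 in Ebf2-/- and 3401 in Ebf2+/-, 1.91-fold lower, with 1.40-fold and 1.10-fold by its other probe sets. Ccnd2 read 3126 in Ebf2-/- and 4554 in Ebf2+/-, 1.46-fold lower, and 6 of its 7 probe sets were lower. Ccnd1 and Ccnd2 were thus lower by their brightest probe sets on the array on which cyclin E and cyclin A were higher. Ccnd3, named after its value was seen, had a log2 ratio of -0.20, smaller than the SD between probe sets.

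Of 8 measured inhibitors of cyclin-dependent kinases 5 were higher in Ebf2-/- (62.5%, against 46.9% of all measured genes). Another 2 were lower (25%, against 47.9%), and 1 was too dim for a fold. The median log2 ratio was 0.40, and the Cdkn1 genes went both ways. Cdkn1c (p57) read 259 in Ebf2-/- and 119.6 in Ebf2+/-, 2.16-fold higher. Cdkn1b (p27) read 98.2 in Ebf2-/- and 61.4 in Ebf2+/-, 1.60-fold higher. Cdkn1a (p21), a target of p53, read 1756 in Ebf2-/- and 2747 in Ebf2+/-, 1.56-fold lower, and its other probe set gave a 1.86-fold lower signal. The list of p53 targets and growth arrest genes had a median log2 ratio of 0.04 over 13 measured genes, with members far apart on both sides. Gas6, a secreted ligand, and Gas1, a membrane protein, both first found in arrested fibroblasts, were 3.23-fold and 2.78-fold higher. The other Gas1 probe sets gave 4.81-fold and, from a dim signal, 1.02-fold. Zmat3 read 416 in Ebf2-/- and 873 in Ebf2+/-, 2.10-fold lower, and the p53 targets Sesn2, Ccng1 and Mdm2, singled out after their values were seen, had log2 ratios of -0.95, -0.84 and -0.65. Other p53 targets were near equal, such as Phlda3 at 0.05 and Sesn1 at 0.04, also singled out afterwards.

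Among pocket proteins and further E2F genes, 11 of 14 measured genes were higher in Ebf2-/- (median 0.23). That is 78.6%, against 46.9% of all measured genes. E2f8, a repressor of E2F targets, read 85.4 in Ebf2-/- and 33.4 in Ebf2+/-, 2.55-fold higher. E2f4 was at least 2.07-fold higher from a dim signal (36.8 in Ebf2-/-, below the floor in Ebf2+/-), and Lin9, a MuvB subunit, read 43.2 in Ebf2-/- and 23.5 in Ebf2+/-, 1.84-fold higher. The log2 ratio of Rb1, the retinoblastoma gene, was 0.06; it is named with its value already known.

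**Figure D5:**
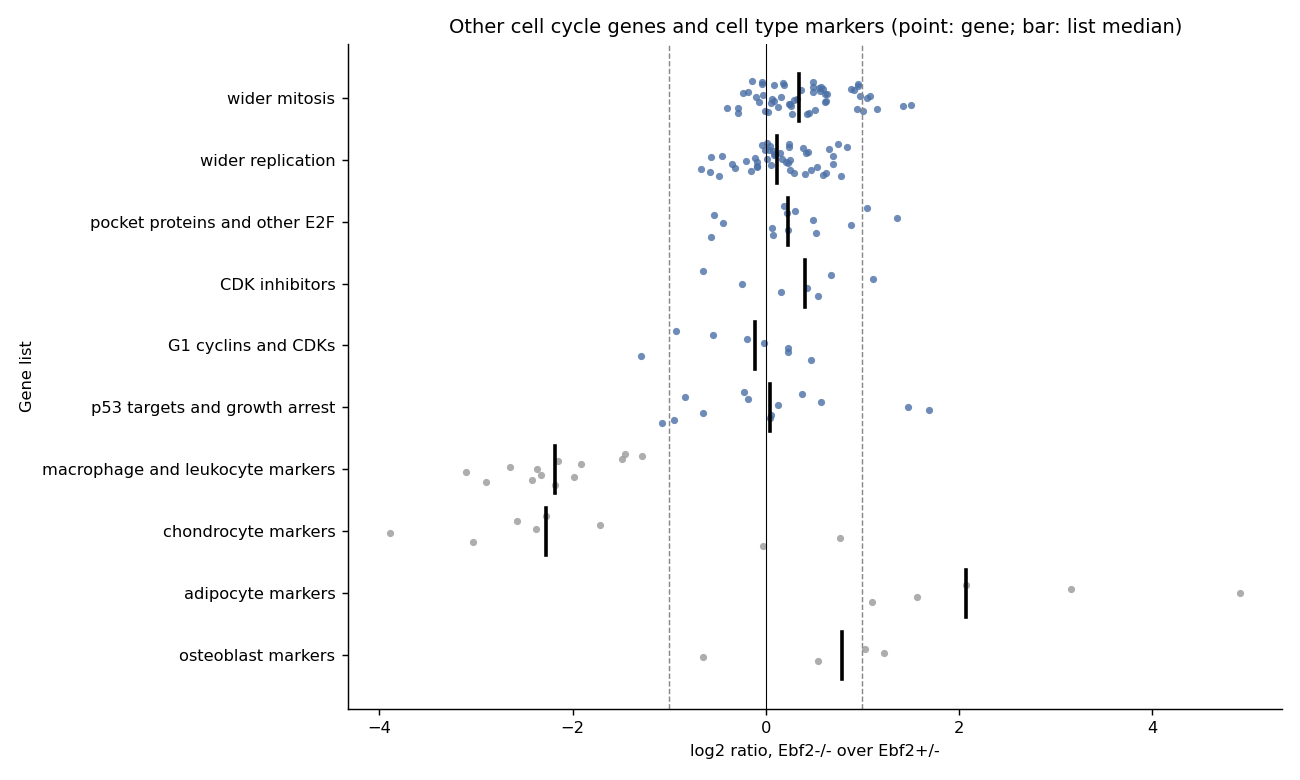
Log2 ratio of Ebf2-/- over Ebf2+/- for the measured genes of 6 further cell cycle lists (blue) and of macrophage, chondrocyte, adipocyte and osteoblast markers (grey), without the 1 CDK inhibitor and 1 chondrocyte marker too dim for a fold; black bars are list medians and dashed lines mark 2-fold. The mitosis list lies mostly above 0 (42 of 54 genes), the G1 cyclin and kinase list has its median at -0.11, all 13 measured macrophage and leukocyte markers lie beyond 2-fold lower, and all 5 measured adipocyte markers beyond 2-fold higher.

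Markers of other cells moved with the same contrast. All 13 measured macrophage and leukocyte markers were at least 2-fold lower in Ebf2-/-, with a summed signal of 2052 in Ebf2-/- and 8677 in Ebf2+/- over the 14 listed, and Itgam was not above background on either array. Csf1r, the macrophage growth factor receptor, read 405 in Ebf2-/- and 1529 in Ebf2+/-, and Lyz2, a lysozyme, 702 in Ebf2-/- and 2780 in Ebf2+/-. Of 9 measured chondrocyte markers 6 were at least 2-fold lower, with a summed signal of 3793 in Ebf2-/- and 12582 in Ebf2+/- over 12 markers. The cartilage collagens Col2a1 and Col9a1 read 2592 and 345 in Ebf2-/-, and 8542 and 1788 in Ebf2+/-. Col2a1 thus made up most of the summed signal on both arrays. Not all chondrocyte markers were lower: Comp read 394.6 in Ebf2-/- and 232.2 in Ebf2+/-. Sox9 was near equal, with 209 in Ebf2-/- and 213 in Ebf2+/-, and both were named after their values were seen. All 5 measured of the 6 listed adipocyte markers were at least 2-fold higher in Ebf2-/-, with a median log2 ratio of 2.07. Their summed signal was 2871 in Ebf2-/- and 717 in Ebf2+/-. Lpl, a lipase, read 1803 in Ebf2-/- and 611 in Ebf2+/-, and Cebpa, an adipogenic transcription factor, read 349.6 in Ebf2-/- and 39.2 in Ebf2+/-. The largest ratio was that of Fabp4, a fatty acid binding protein, named after its value was seen, with 552 in Ebf2-/- and 18.4, barely above the floor, in Ebf2+/-. Of 10 listed osteoblast markers 6 had a probe set with a single symbol, and Runx2, Spp1, Bglap and Bglap2 were not analysed. The 4 measured osteoblast markers had a median log2 ratio of 0.78. The matrix genes Col1a1 and Sparc were 2.33-fold and 1.46-fold higher in Ebf2-/- by their brightest probe sets. The other Col1a1 probe set read 982 in Ebf2-/- and 1375 in Ebf2+/-, so the direction of Col1a1 is not settled. A second Sparc probe set was also higher, with 14829 in Ebf2-/- and 8255 in Ebf2+/-. Alpl, a phosphatase of mineralizing cells, was 2.04-fold higher, and Sp7, an osteoblast transcription factor, was 1.57-fold lower. Ibsp and Dmp1, genes of mature bone cells, were not above background on either array. The part that these cell types had in the values of the proliferation genes was not tested. Markers of red cells were at background except Epor in Ebf2+/-.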

How the data were processed

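Gene expression was measured on 1 Affymetrix array for each genotype. The authors deposited 1 linear intensity per probe set (45101 in all), made with MAS5 per the submitters' processing notes. The MAS5 version is not given in those sources. Without the lowest and highest 2% the mean intensity was 100.001 on both arrays, so the signals had been scaled before deposit, which fixes the average and hides a shift shared by most genes.

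Of the probe sets, 34958 had 1 gene symbol in the platform annotation, 932 had several and 9211 had none listed; those with several or none were left out. Where a gene had several probe sets, the brightest by mean log2 signal stood for it. Values below the floor were set to the floor before the ratio, and such ratios are bounds ("at least"). They enter medians at that bound. With 1 array per genotype no test across samples was possible. The 2 arrays limit the precision of every value. Shares over all measured genes stand beside those of the members.

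Of 151 further cell cycle genes 148 had a probe set, and of 65 cell type markers 59; older symbols were matched through RefSeq gene IDs. The members, lists, folds and promoter motifs were chosen with earlier results of these data known. Named are all members, the 3 largest ratios of each further list, Ccnd1 and the Cdkn1 genes, and the 2 brightest markers of a list where they are discussed. Further genes (Myc, Cdk2, Cdk4, Ccnd3, Sesn1, Sesn2, Ccng1, Mdm2, Phlda3, Rb1, Comp, Sox9, Fabp4, Alpl, Sp7, Ibsp, Dmp1, Itgam, Epor and those of the closing section) were named after their values were seen. Promoter stretches that overlap an annotated gene were passed over, a choice made after the windows were seen. The ratio step was run on simulated data with changes larger than those of the members, in genes well above background and with little noise. That run does not show how well small ratios or ratios of dim genes are recovered. Analyses used Python 3.11.15, pandas 2.3.3, numpy 2.4.6 and statsmodels 0.14.6 (lowess).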

Additional observations from a re-analysis of the deposited data

How the results depend on the processing

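With 1 array per genotype, sizes and directions were recomputed under other scalings, floors and probe set rules. The mitosis median lay between 0.26 and 0.48 on the log2 scale over these settings and the replication median between 0.09 and 0.47, and neither changed sign. Relative to all measured genes, they lay 0.35 to 0.43 and 0.08 to 0.42 above the median.

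With spike-in scaling the median was 0.21 over all members, 0.26 for mitosis and 0.089 for replication genes, 5 members were at least 1.5-fold higher, and 1879 of all genes were 1.5-fold lower, in place of 1241. With the mean over probe sets the median was 0.44 over all members and 0.47 for replication genes, replication minus mitosis was -0.013, and Tpx2, Bub1, Top2a and E2f1 turned to -0.11, -0.51, -0.28 and -0.25; Kif2c and Mcm4, near 0 before, turned to 0.04 and 0.16. That setting includes probe sets below background and measured 35 members. Without Ccne1 and Ccne2 the replication median was 0.115 and the difference from mitosis -0.28. With a pseudocount of 50 and no floor 4 members were 1.5-fold and 0 were 2-fold higher, and of all genes 895 and 280 were higher and 659 and 134 lower at these sizes. Without a floor 2 members were 2-fold higher, and 1874 and 932 of all genes were 1.5-fold and 2-fold lower. Without probe sets of types that can also match other transcripts 34 members were measured, and 28 were higher in Ebf2-/-. The median was then 0.28 for replication and 0.44 for mitosis genes. In that setting Mcm3 moved to 0.97, and Top2a to a bound of 1.53 from a dim probe set. The causes of these shifts were not tested. Quantile and lowess scaling left the count of members 1.5-fold higher at 11 and 10. No member was 1.5-fold lower in any setting run.

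No paired analysis was possible because each genotype has 1 array. Dim genes (Tyms, Mybl2, Cdc6, Foxm1) lie near background and their sizes are the least certain.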

Other observations

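Some further replication genes, named after their values were seen, lay away from the median of their list. The single-strand DNA binding subunit Rpa1 read 1044 in Ebf2-/- and 1555 in Ebf2+/-, a log2 ratio of -0.57. Its partner Rpa3 read 384 in Ebf2-/- and 249 in Ebf2+/-, a log2 ratio of 0.62. Tipin, a component of the fork protection complex, read 566 in Ebf2-/- and 792 in Ebf2+/- (-0.48), whereas its partner Timeless read 96.5 in Ebf2-/- and 64.1 in Ebf2+/- (0.59). Rfc3, a clamp loader subunit, had the lowest ratio of that list, with 60.9 in Ebf2-/- and 96.7 in Ebf2+/- (-0.67), and its fellow subunit Rfc4 read 173 in Ebf2-/- and 125 in Ebf2+/- (0.46). These pairs were picked for lying on opposite sides of 0 and say nothing about other complexes.

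Among further mitosis genes, also named after their values were seen, Pttg1, the gene of securin, had the lowest ratio (-0.40), reading 1394 in Ebf2-/- and 1836 in Ebf2+/-. Hmgb2, a chromatin protein abundant in dividing cells, read 375 in Ebf2-/- and 177 in Ebf2+/-, a log2 ratio of 1.08.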
